A study of Mus musculus with 96 samples.

Results

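The genes described here are 10 lysosomal cathepsins, Ctsa, Ctsb, Ctsc, Ctsd, Ctsf, Ctsh, Ctsk, Ctsl, Ctss and Ctsz. They were taken by symbol from the 32594 genes of the count tables, and all 10 were found in both tables. Their mRNA was followed in 96 bulk RNA-seq libraries from the ipsilateral hippocampus, thalamus and hypothalamus of male C57BL/6 mice aged 8 to 10 weeks, taken 3 or 29 days post-injury (dpi). Each region and time point had 4 groups of 4 libraries. TBI mice received a craniectomy and a controlled cortical impact on the left cortex. Sham mice were anaesthetised and had a skin incision without a craniectomy, so an injury comparison includes the opening of the skull. Each was treated with vehicle (VH) or with candesartan (CD), a blocker of the angiotensin II type 1 receptor, at 0.1 mg/kg per day. In the 3 dpi mice the drug or vehicle was injected intraperitoneally at 6, 24 and 48 h, and in the 29 dpi mice it was injected at 6 h and then delivered by an osmotic pump implanted at 24 h, so the time points differ in route as well as in duration. All mice were perfused with saline before dissection.

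Cathepsins are the main proteases of the lysosome. They are made as inactive proenzymes, carried to the lysosome largely on mannose 6-phosphate receptors, and activated there by acid and by other proteases. Ctsb, Ctsc, Ctsf, Ctsh, Ctsk, Ctsl, Ctss and Ctsz are cysteine proteases, Ctsd is an aspartic protease, and Ctsa is a serine carboxypeptidase that also protects the lysosomal enzymes beta-galactosidase and neuraminidase. In brain, Ctsd and Ctsb are found in neurons and glia alike, whereas Ctss is known as a gene of microglia and macrophages, where it takes part in processing antigen for MHC class II.

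The libraries held 17150610 to 31253784 counts at 3 dpi and 6663629 to 38589791 at 29 dpi. Of the hippocampal libraries at 29 dpi, Sham + VH replicate 2 held 8159341 counts and Sham + CD replicate 1 held 6663629, the lowest 2 of all 96. The injury calls within that region and time point are given with and without them. In the thalamus at 29 dpi, TBI + CD replicate 4 stood apart from its group and is described with that comparison. Markers of hippocampal neurons were highest in the libraries labelled hippocampus, where their summed level was 656 to 733 CPM (counts scaled to a common library total) in the vehicle mice at 3 dpi, against 138 to 175 CPM in the thalamus. Choroid plexus markers varied strongly between libraries, as given beside the results they move with.

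Levels are CPM with normalisation factors computed over all 96 libraries. A gene is called changed when its false discovery rate (FDR) over all genes tested, from the quasi-likelihood test of edgeR, was under 0.05 and its absolute log2 fold change above 0.32. The labels do not say whether the regions came from the same mice or how many mice each replicate stands for, so a p-value measures the spread between these libraries. Where the libraries of different groups are said not to overlap, the share of all genes that separate in this way was not counted.

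Ctsd was the most abundant of the 10 in uninjured tissue when the counts were divided by transcript length. In the 3 dpi Sham + VH hippocampus it stood at 234 ± 30.9 CPM per kilobase of its longest coding transcript (SD, n = 4). Ctsb followed at 124 ± 0.922 CPM per kilobase. Ctss at 37.0 ± 3.40, Ctsf at 36.2 ± 1.62 and Ctsa at 33.0 ± 2.22 CPM per kilobase came next and lay within their spread of each other. Ctsz at 25.1, Ctsl at 13.5, Ctsh at 6.55, Ctsc at 4.66 and Ctsk at 1.13 CPM per kilobase made up the rest. Ctsd alone accounted for 45.4% of the summed level per kilobase and Ctsb for 24.1%. The order of the middle genes depends on the length used. With the length of all annotated exons merged, Ctsf moved from place 4 to place 6. Ctsk, the cathepsin of osteoclasts that degrades bone collagen, was close to the lower end of detection, where each hippocampal 3 dpi library held between 18 and 51 reads of it.

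**Figure D1:**
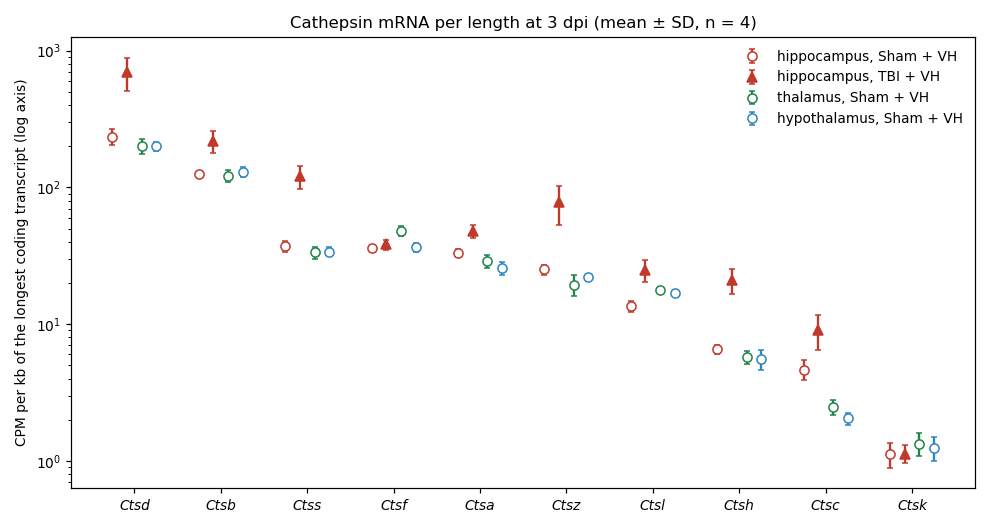
Level of each cathepsin at 3 dpi in CPM per kilobase of its longest coding transcript, on a log axis, with open circles for the Sham + VH group of each region, filled triangles for the hippocampal TBI + VH group and bars for the SD of 4 libraries. Ctsd leads in all groups shown, from 199 CPM per kilobase in the hypothalamus to 695 in the injured hippocampus, and Ctsk is lowest in each.

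Among the Sham + VH groups most cathepsins differed little between regions, and Ctsc differed most. Ctsc encodes the dipeptidyl peptidase that activates the serine proteases of immune cells. Its level at 3 dpi was 16.4, 14.3, 11.8 and 17.5 CPM in the hippocampus, 7.95, 7.44, 9.49 and 7.155 CPM in the thalamus and 6.85, 7.09, 5.65 and 6.75 CPM in the hypothalamus. Every hippocampal library lay above every library of the other two regions. The summed choroid plexus markers of the same libraries were 6776, 4381, 179 and 4613 CPM in the hippocampus, 1100, 58.3, 3354 and 20.4 CPM in the thalamus and 7.06 to 14.6 CPM in the hypothalamus. Hippocampal replicate 3, with the smallest sum of its region, had the lowest Ctsc there, and thalamic replicate 3, with the largest sum of its region, had the highest Ctsc there. The part of these markers in the regional difference was not tested. The difference was 0.90 ± 0.18 on the log2 scale (SE) from the thalamus (FDR = 3.08e-05) and 1.18 ± 0.18 from the hypothalamus (FDR = 2.08e-07). At 29 dpi the corresponding differences were 0.80 ± 0.20 (FDR = 0.000637) and 1.34 ± 0.20 (FDR = 2.79e-07), and Ctsc was also 0.53 ± 0.20 higher in thalamus than in hypothalamus (FDR = 0.0252).

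Ctsf and Ctsl ran the other way. Ctsf, a widely expressed cysteine protease, averaged 71.65 CPM in the 3 dpi Sham + VH hippocampus, 95.2 CPM in the thalamus and 72.5 CPM in the hypothalamus. It was 0.42 ± 0.06 lower in hippocampus than in thalamus on the log2 scale (FDR = 4.1e-08) and 0.39 ± 0.06 higher in thalamus than in hypothalamus (FDR = 3.25e-07). Ctsl, an endopeptidase found in most cell types, averaged 83.25 CPM in the hippocampus against 109 CPM in the thalamus and 104 CPM in the hypothalamus, 0.40 ± 0.09 lower than in the former (FDR = 0.000119) and 0.33 ± 0.09 lower than in the latter (FDR = 0.000852). At 29 dpi the hippocampal level of Ctsf was again lower than the thalamic one, by 0.39 ± 0.06 (FDR = 6.37e-07), and that of Ctsl was lower than the thalamic one by 0.34 ± 0.10 (FDR = 0.00369) and than the hypothalamic one by 0.39 ± 0.10 (FDR = 0.000868). The other calls were Ctsz, 0.36 ± 0.15 higher in hippocampus than in thalamus at 3 dpi (FDR = 0.0409), and Ctsa, 0.35 ± 0.08 higher in hippocampus than in hypothalamus at 3 dpi (FDR = 8.32e-05).

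Set against all genes, the cathepsins were no more region-dependent than the rest. Between hippocampus and thalamus 4 of 10 were called at 3 dpi, when 40.9% of all genes tested were, and 3 of 10 at 29 dpi against 39.3%. Between hippocampus and hypothalamus the counts were 3 of 10 against 46.7% at 3 dpi and 2 of 10 against 45% at 29 dpi. Thalamus and hypothalamus differed in 1 of 10 against 28.6% at 3 dpi and in 1 of 10 against 32.9% at 29 dpi. Single libraries decided some of these calls. At 3 dpi the Ctsz call was lost without hippocampal replicate 1, 2 or 4 or thalamic replicate 2 or 4. The Ctsl call against the hypothalamus was lost without hippocampal replicate 2 or 3, the latter also adding Ctsd, and without hypothalamic replicate 4 Ctsc was the 1 member left. At 29 dpi the Ctsl call was lost without hippocampal replicate 2 or 3 in both comparisons, Ctsa being added against the hypothalamus, and without thalamic replicate 4 in the first. Without hypothalamic replicate 4 Ctsa was added. The Ctsc call between thalamus and hypothalamus at 29 dpi was lost without thalamic replicate 3 or 4, and Ctsk was added without thalamic replicate 2 or hypothalamic replicate 1.

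Injury raised most cathepsin mRNAs in the hippocampus at 3 dpi. In TBI + VH against Sham + VH, 8 of 10 were called higher, where 8.99% of the 16756 genes tested were, and none was called lower. Ctss, Ctsh, Ctsz and Ctsd rose 2.97-fold to 3.26-fold in mean CPM, Ctsc, Ctsl and Ctsb 1.76-fold to 1.94-fold and Ctsa 1.45-fold, whereas Ctsf and Ctsk were not called. The median log2 fold change of the 10 was 0.951, against -0.0129 over all genes, and 10 of 10 were above 0, as were 46.8% of all genes. In bulk tissue a larger number of cells of one type and more RNA per cell cannot be told apart.

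Ctss, the antigen-processing protease of microglia and macrophages, measured 52.9, 43.9, 54.2 and 49.4 CPM in the Sham + VH libraries and 187.5, 125, 188 and 153 CPM in the TBI + VH libraries. The lowest injured library was 125 CPM and the highest sham library 54.2 CPM, so the groups did not overlap. The log2 fold change was 1.74 ± 0.14 (SE, FDR = 2.96e-07). Ctsh, an aminopeptidase that also works in lung surfactant processing, measured 10.9, 11.4, 9.38 and 10.7 CPM in sham and 39.8, 24.6, 38.0 and 32.8 CPM in injured libraries, a log2 fold change of 1.71 ± 0.13 (FDR = 2.85e-07). Its lowest injured library was above its highest sham library as well.

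Ctsz, a carboxypeptidase, measured 38.2, 36.2, 31.98 and 38.5 CPM in sham and 135, 69.7, 145 and 97.05 CPM in injured libraries. The log2 fold change was 1.66 ± 0.20 (FDR = 1.92e-05). Ctsd measured 530, 518, 400.5 and 543 CPM in sham and 1756, 983, 1863 and 1314 CPM in injured libraries, a log2 fold change of 1.61 ± 0.19 (FDR = 1.5e-05). For both genes replicates 1 and 3 of the injured group were high and replicate 2 was low, and each injured library still lay above all sham libraries.

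Ctsc rose from 15.0 ± 2.52 to 29.1 ± 8.38 CPM (SD, n = 4 each), or by 0.99 ± 0.20 on the log2 scale (FDR = 0.00227). Its injured library nearest to sham, replicate 2, was at 18.4 CPM against 17.5 CPM in the highest sham library. Ctsl rose from 83.25 ± 7.60 to 152 ± 27.9 CPM, or by 0.91 ± 0.12 on the log2 scale (FDR = 6e-05). Ctsb rose from 590 ± 4.37 to 1037 ± 186 CPM, or by 0.85 ± 0.11 (FDR = 4.93e-05), and Ctsa from 120 ± 8.11 to 175 ± 19.6 CPM, or by 0.57 ± 0.08 (FDR = 5.79e-05). The injured libraries of these 4 genes did not overlap the sham libraries either. TBI + VH replicate 2 was the lowest injured vehicle library for each of the 8 genes called.

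Ctsf and Ctsk stood apart from the others. Ctsf measured 66.9 to 74.1 CPM in sham and 68.9 to 83.5 CPM in injured libraries, with a log2 fold change of 0.11 ± 0.06 and a 95% interval of -0.01 to 0.23 (FDR = 0.276). Ctsk measured 1.23 to 1.97 CPM in sham and 1.52 to 2.08 CPM in injured libraries, with a log2 fold change of 0.03 ± 0.22 and an interval of -0.41 to 0.47 (FDR = 0.962). The groups overlapped for both, and the Ctsk interval reaches past the fold threshold in either direction.

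**Figure D2:**
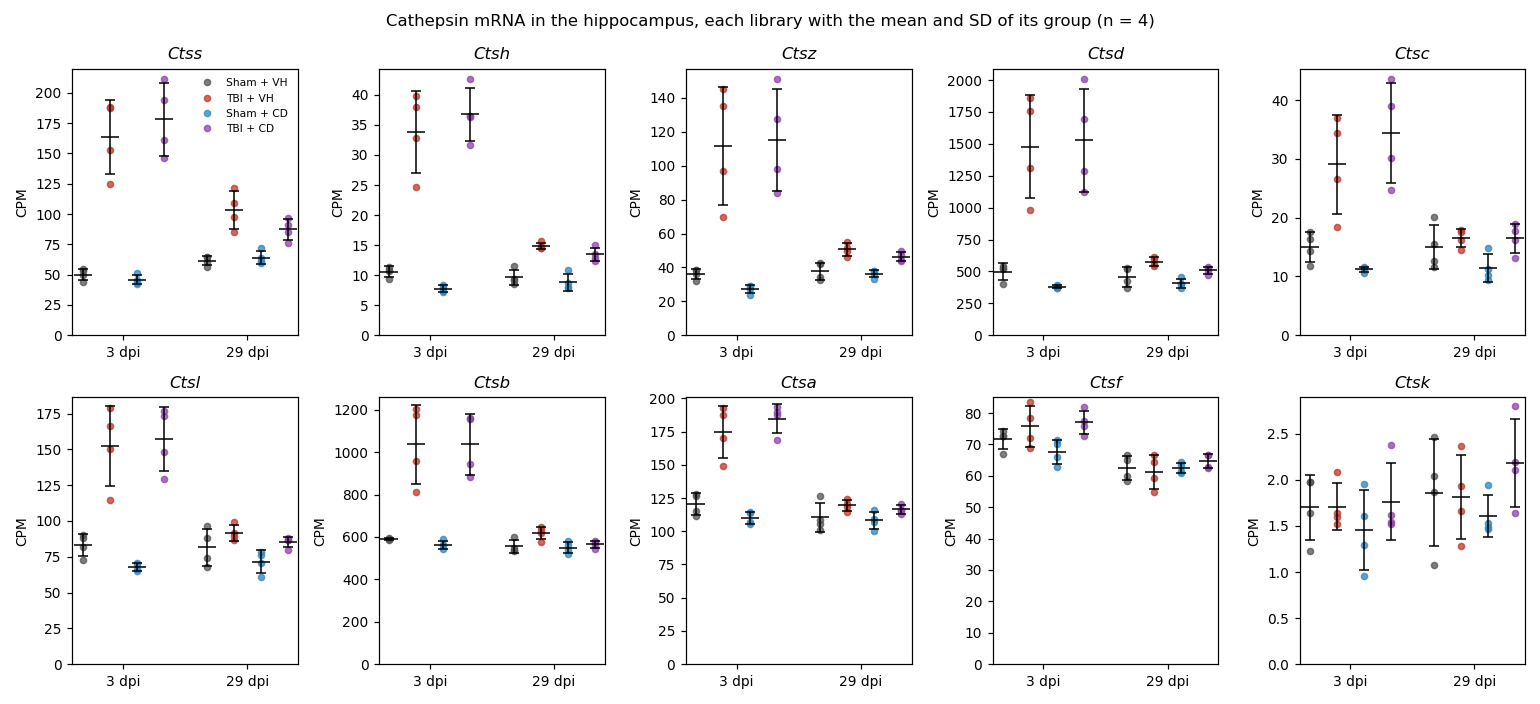
CPM of each cathepsin in every hippocampal library at 3 and 29 dpi, with points for libraries, colours for the 4 groups, and a horizontal line and bars for the mean and SD of 4 libraries, each axis starting at 0. The TBI groups at 3 dpi lie above both sham groups in 8 genes, while Ctsf and Ctsk overlap between TBI + VH and Sham + VH. The share of all genes that separate in this way was not counted.

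The makeup of the cathepsin mRNA shifted with injury. The summed CPM of the 10 genes went from 1476 ± 85.6 to 3258 ± 718 (SD, n = 4 each). Per kilobase, Ctsd went from 45.4% to 55.45% of the summed level and Ctsb from 24.1% to 17.4%. Ctsz rose from place 6 to place 4 of the order and Ctsf dropped from place 4 to place 6. These shares are descriptions and carry no test.

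Markers of other cells moved in the same libraries. All 7 microglial markers were called higher, and their summed level went from 241 to 262 CPM in Sham + VH to 455 to 624.5 CPM in TBI + VH. Of the 7 markers of infiltrating and border macrophages 4 were called higher, and their sum went from 11 to 18.4 CPM to 40.0 to 147 CPM. For both lists TBI + VH replicate 2, the library with the lowest cathepsin levels, was the lowest injured library. The 4 neutrophil markers found in the tables summed to 0.305 to 0.779 CPM in TBI + VH and 0.503 to 0.677 CPM in Sham + VH, close to 0 in both. All 8 choroid plexus markers were called lower in TBI + VH, with a sum of 179 to 6776 CPM in Sham + VH and 7.07 to 147 CPM in TBI + VH. With a choroid plexus score as a covariate, 7 of the 8 cathepsins were still called, beside 623 of 16756 genes against 1796 without it, and Ctsc was not, at a log2 fold change of 0.94 ± 0.31 (FDR = 0.122). The part of the other marker lists in the cathepsin rise was not tested.

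When each cathepsin was divided by the summed microglial markers of its own library, the 10 genes separated. Ctss went from 19.8% of the marker sum in Sham + VH (18.2% to 20.8%) to 29.3% in TBI + VH (27.4% to 30.2%). Ctsh went from 4.20% to 6.05%, Ctsz from 14.35% to 19.7% and Ctsd from 197.5% to 262%. These 4 genes thus increased by more than the markers did, and in each the 4 injured libraries lay above the 4 sham libraries. The gap was narrow for Ctsd, with 215.9% in the lowest injured and 214.9% in the highest sham library, and for Ctsz, with 15.31% and 15.13%. In TBI + CD the lowest Ctsd library, at 211.2%, lay below the highest Sham + VH library. Ctsb went from 234% to 186%, Ctsa from 47.7% to 31.6%, Ctsf from 28.4% to 13.85% and Ctsk from 0.673% to 0.318%, each with all injured libraries below all sham libraries. Ctsc at 5.94% and 5.145% and Ctsl at 33.0% and 27.3% overlapped between the groups. The ratio was not tested, and it does not say which cells the reads came from.

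**Figure D3:**
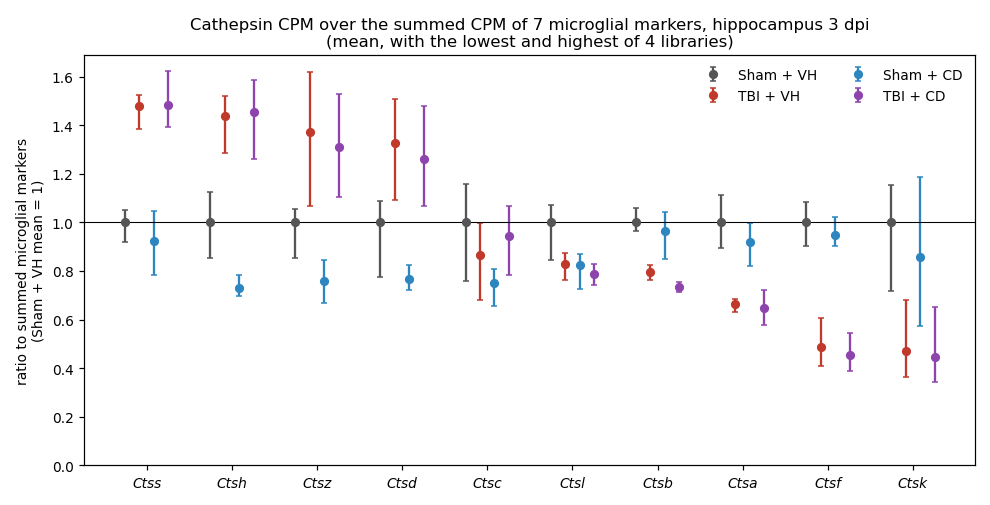
CPM of each cathepsin divided by the summed CPM of 7 microglial markers of the same library in the hippocampus at 3 dpi, scaled so that the Sham + VH mean is 1, with points for group means and bars from the lowest to the highest of 4 libraries. Ctss, Ctsh, Ctsz and Ctsd lie above 1 in both TBI groups, and Ctsl, Ctsb, Ctsa, Ctsf and Ctsk lie below 1 there in every library.

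The mice that received candesartan gave a similar picture of injury at 3 dpi. In TBI + CD against Sham + CD, 8 of 10 were called higher, where 14.4% of all genes were, and in TBI + CD against Sham + VH 8 of 10 where 10.3% were. Both sets were the same 8 genes as in the vehicle mice. The latter comparison shares its sham libraries with the vehicle comparison. In TBI + CD against Sham + CD the log2 fold changes were 2.30 ± 0.14 for Ctsh, 2.12 ± 0.21 for Ctsz, 2.06 ± 0.20 for Ctsd, 2.01 ± 0.14 for Ctss, 1.67 ± 0.21 for Ctsc, 1.25 ± 0.13 for Ctsl, 0.93 ± 0.11 for Ctsb and 0.79 ± 0.08 for Ctsa. Ctsf had an FDR of 0.00727 there at a log2 fold change of 0.23 ± 0.06, below the fold threshold, with 62.9 to 71.5 CPM in Sham + CD and 72.8 to 81.8 CPM in TBI + CD. In all 3 of these comparisons the count of 8 held when any 1 of the 16 libraries was left out.

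In the fit of all 4 groups, no cathepsin was called for candesartan in the hippocampus at 3 dpi, and among sham mice this count depended on the fit. Among injured mice, TBI + CD against TBI + VH, edgeR called 0 of 10 and 0% of all genes, with 0 cathepsins and 732 genes at an unadjusted p under 0.05, and DESeq2 called 0 cathepsins. The log2 fold changes were 0.13 ± 0.13 for Ctss (95% interval -0.13 to 0.38), 0.12 ± 0.13 for Ctsh (-0.13 to 0.36), 0.05 ± 0.19 for Ctsd (-0.32 to 0.42) and 0.00 ± 0.11 for Ctsb (-0.22 to 0.22), so a change of the size of the fold threshold lies inside the first 3 of these intervals. In the uninjured mice, Sham + CD against Sham + VH, 0 of 10 were called by edgeR against 1.5% of all genes. That share rests on single libraries, since the 251 genes called became 0 to 2 when any 1 of Sham + VH replicates 1, 2 and 4 or of the 4 Sham + CD libraries was left out, and 553 without Sham + VH replicate 3. There 3 of 10 cathepsins (Ctsd, Ctsh and Ctsl) and 2511 of 16756 genes had an unadjusted p under 0.05. All 10 log2 fold changes were below 0, with a median of -0.268 against -0.000275 over all genes. Ctsh was furthest at -0.47 ± 0.145 (interval -0.75 to -0.18, FDR = 0.118). DESeq2 called Ctsh among 450 genes, and edgeR called it without TBI + VH replicate 2. With only the 2 sham groups fitted, edgeR called Ctsd, Ctsh and Ctsz lower (FDR = 0.0415, 0.0357 and 0.0314), 3 of 10 among 250 of 16071 genes. The interaction of candesartan with injury was called for 0 of 10 and for 0% of all genes, with 2 of 10 cathepsins and 2196 of 16756 genes at an unadjusted p under 0.05. Ctsh had an interaction of 0.58 ± 0.19 (FDR = 0.189) and Ctsc of 0.67 ± 0.29 (FDR = 0.314). DESeq2 called 0 cathepsins for it and 325 genes.

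The sham groups also differed in their choroid plexus markers. The sum of these was 41.3 to 93.1 CPM in the 4 Sham + CD libraries and 6776, 4381, 179 and 4613 CPM in the Sham + VH libraries. Sham + VH replicate 3, the library with the least, also had the lowest Ctsd of its group at 400.5 CPM, the lowest Ctsc at 11.8 CPM, the lowest Ctsl at 73.1 CPM the lowest Ctsz at 31.98 CPM and the lowest Ctsh at 9.38 CPM, and it was the lowest for Ctsa and Ctsf too. It had the highest Ctss of its group at 54.2 CPM, and its Ctsk at 1.97 CPM was level with the highest. The Sham + CD libraries spanned 369 to 393 CPM for Ctsd, 10.6 to 11.6 CPM for Ctsc, 65.2 to 70.8 CPM for Ctsl and 23.7 to 29.3 CPM for Ctsz. With the choroid plexus score as a covariate, the log2 fold change went from -0.40 ± 0.19 to -0.51 ± 0.28 for Ctsd, from -0.42 ± 0.21 to -0.60 ± 0.30 for Ctsz and from -0.47 ± 0.145 to -0.45 ± 0.21 for Ctsh. The differences of Ctsd and Ctsz were thus larger with wider errors, and edgeR called 0 of 10 cathepsins in both fits, beside 251 of 16756 genes without the covariate and 0 with it.

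In the thalamus at 3 dpi the injury response was smaller and reached 2 genes. Ctss measured 51.9, 42.0, 44.2 and 43.0 CPM in Sham + VH and 66.8, 73.7, 57.2 and 56.6 CPM in TBI + VH, with no overlap and a log2 fold change of 0.49 ± 0.09 (FDR = 0.0263). Ctsz measured 30.2, 24.2, 33.6 and 24.1 CPM in Sham + VH and 45.7, 40.2, 35.1 and 37.5 CPM in TBI + VH, again without overlap, with a log2 fold change of 0.50 ± 0.10 (FDR = 0.0482). These are 2 of 10 members called higher against 0.298% of all genes. In the candesartan mice the same 2 genes were called, 2 of 10 against 0.167% of genes in TBI + CD against Sham + CD (Ctss 0.48 ± 0.09, FDR = 0.0422, and Ctsz 0.58 ± 0.10, FDR = 0.0275) and 2 of 10 against 0.418% in TBI + CD against Sham + VH (Ctss 0.56 ± 0.09, FDR = 0.0087, and Ctsz 0.60 ± 0.10, FDR = 0.014). Of the members not called, Ctsd had 0.32 ± 0.09 (FDR = 0.306), Ctsc 0.38 ± 0.16 (FDR = 1) and Ctsh 0.36 ± 0.14 (FDR = 0.899) in the vehicle mice.

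These thalamic calls were close to the threshold. Both were lost in the vehicle comparison when only its 8 libraries were fitted, and also when TBI + VH replicate 1 or 2 or Sham + VH replicate 2 or 4 was left out. Of 16 libraries left out in turn, 14 changed the vehicle count of 2 to 1 or 0, most often by losing Ctsz, and the 50 genes called over all became 24 to 79. In TBI + CD against Sham + CD both were lost when any of Sham + CD replicates 1, 2 and 4 or of TBI + CD replicates 1, 2 and 3 was left out, and Ctss when Sham + CD replicate 3 or either of Sham + VH replicates 3 and 4 was. In TBI + CD against Sham + VH, Ctss remained in each case and Ctsz was lost when only the compared groups were fitted and when TBI + CD replicate 3 or either of Sham + VH replicates 2 and 4 was left out. Ctsd, not called by the main fit at 0.37 against Sham + VH and 0.39 against Sham + CD, was called by DESeq2 in both candesartan comparisons. Against Sham + CD it was also called when only the compared groups were fitted. The summed microglial markers went from 175 to 211 CPM in Sham + VH to 240 to 311 CPM in TBI + VH, and 5 of 7 were called higher. The choroid plexus sum was 20.4 to 3354 CPM in Sham + VH and 21.0 to 56.3 CPM in TBI + VH. Their part in the thalamic result was not tested.

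Thalamic Ctsk gave a separate pattern at low counts. It measured 2.53 to 2.98 CPM in Sham + CD and 1.07 to 2.27 CPM in TBI + CD, from 23 to 88 counts per library, with a log2 fold change of -0.71 ± 0.21 that was not called (FDR = 0.345). The candesartan comparisons of the thalamus at 3 dpi gave 0 of 10 called, with 0% of genes called by edgeR in Sham + CD against Sham + VH, in TBI + CD against TBI + VH and in the interaction. At an unadjusted p under 0.05 they held 0 to 1 cathepsins and 344 to 1152 genes, the 1 being Ctsk in the sham comparison, and DESeq2 called 0 cathepsins in each.

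In the hypothalamus, which lies furthest from the impact, edgeR called 0 of 10 in each of the 6 comparisons at 3 dpi and 0% of genes. In TBI + VH against Sham + VH, 6 of 10 (Ctsc, Ctsd, Ctsh, Ctsl, Ctss and Ctsz) had an unadjusted p under 0.05, as did 577 of 16946 genes, and each of the 6 had an FDR of 1. Ctss had a log2 fold change of 0.20 ± 0.07 (95% interval 0.07 to 0.34) and Ctsz of 0.22 ± 0.09 (0.05 to 0.40). Over the 6 comparisons 0 to 6 cathepsins and 353 to 936 genes had an unadjusted p under 0.05, and DESeq2 called 0 cathepsins. Both upper bounds lie below the lower bounds of the hippocampal intervals, 1.47 for Ctss and 1.26 for Ctsz.

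The difference between regions was tested in its own right. In the vehicle mice at 3 dpi the injury response was larger in hippocampus than in thalamus for 7 of 10 cathepsins, where 3.51% of genes were called in that direction, and larger than in hypothalamus for 7 of 10, where 4.92% were. The 7 were Ctsa, Ctsb, Ctsd, Ctsh, Ctsl, Ctss and Ctsz in both cases. The difference of log2 fold changes from the thalamus was 1.32 ± 0.20 for Ctsh (FDR = 2.03e-05), 1.26 ± 0.19 for Ctsd (FDR = 1.95e-05), 1.22 ± 0.15 for Ctss (FDR = 9.53e-07), 1.13 ± 0.21 for Ctsz (FDR = 0.000475), 0.78 ± 0.12 for Ctsl, 0.74 ± 0.12 for Ctsb and 0.48 ± 0.11 for Ctsa. From the hypothalamus it was 1.52 ± 0.15 for Ctss (FDR = 3.18e-09), 1.47 ± 0.19 for Ctsd (FDR = 4.46e-07) and 1.42 ± 0.21 for Ctsz (FDR = 5.8e-06). Ctsc was not called, at 0.59 ± 0.24 from the thalamus (FDR = 0.235) and 0.66 ± 0.25 from the hypothalamus (FDR = 0.123), and became the eighth call in both when hippocampal TBI + VH replicate 2 was left out. These tests treat the regions as independent.

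**Figure D4:**
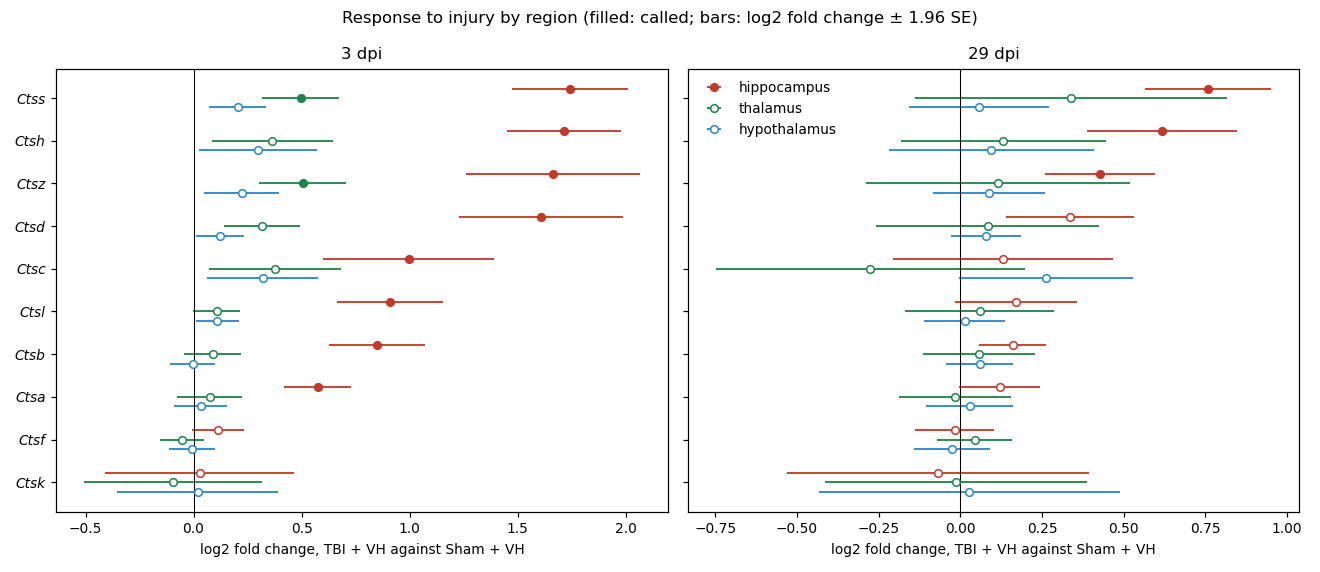
log2 fold change of each cathepsin in TBI + VH against Sham + VH, by region, at 3 dpi (left) and 29 dpi (right), with points for the estimate, bars for the 95% interval and filled points for genes called. At 3 dpi 8 hippocampal points, from 0.57 to 1.74, and 2 thalamic points are filled, and at 29 dpi only Ctss, Ctsh and Ctsz in the hippocampus are.

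At 29 dpi the hippocampal response was smaller and held for 3 genes in the vehicle mice, 3 of 10 called higher against 0.523% of all genes. Ctss measured 56.3, 60.7, 64.6 and 64.3 CPM in Sham + VH and 97.7, 84.8, 109 and 122 CPM in TBI + VH, with no overlap and a log2 fold change of 0.76 ± 0.10 (FDR = 0.000632). Ctsh measured 11.5, 8.47, 9.33 and 9.17 CPM in sham and 14.55, 14.5, 14.9 and 15.6 CPM in injured libraries, a log2 fold change of 0.62 ± 0.12 (FDR = 0.0172). Ctsz went from 32.8 to 42.55 CPM in sham to 46.4 to 55.2 CPM in injured libraries, a log2 fold change of 0.43 ± 0.09 (FDR = 0.0259). In all 3 the injured libraries lay above the sham libraries, as they did for Ctsd, which was not called at 0.34 ± 0.10 (FDR = 0.234). How many of all genes separated in this way was not counted. Ctsb had 0.16 ± 0.05 (FDR = 0.319), Ctsl 0.17 ± 0.10 (FDR = 0.736), Ctsc 0.13 ± 0.17 (FDR = 0.959) and Ctsa 0.12 ± 0.06 (FDR = 0.702).

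Ctss was the one call of these 3 that did not depend on a single library. With the 2 shallow libraries left out, Ctss stood at 0.75 ± 0.11 (FDR = 0.00661), Ctsh at 0.57 ± 0.13 (FDR = 0.0952) and Ctsz at 0.39 ± 0.09 (FDR = 0.115). Leaving out Sham + VH replicate 2 or 3 or TBI + VH replicate 4 also left Ctss as the 1 gene called, as did fitting only the 2 groups compared. Without Sham + VH replicate 4 Ctsh was lost, and without TBI + VH replicate 1 or 3 Ctsz was. In the same libraries the microglial marker sum went from 228 to 269 CPM to 288 to 306 CPM, with 1 of 7 markers called, and the macrophage marker sum from 10.8 to 19.8 CPM to 40.6 to 62.7 CPM, also with 1 called. The choroid plexus sum was 62.7 to 7455 CPM in Sham + VH and 18.3 to 2237 CPM in TBI + VH. With the choroid plexus score as a covariate the same 3 genes and Ctsd were called, 4 of 10 beside 98 of 16832 genes, and the part of the other lists was not tested.

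In the candesartan mice at 29 dpi, 1 of 10 was called higher in TBI + CD against Sham + CD, Ctsh at 0.62 ± 0.12 (FDR = 0.0263), against 0.351% of genes. Ctss had 0.46 ± 0.10 (FDR = 0.0538) and Ctsz 0.37 ± 0.08 (FDR = 0.0772), both just short of the FDR threshold. DESeq2 called Ctsh, Ctss and Ctsz, 3 of 10 among 170 genes, and edgeR called these and Ctsd, 4 of 10 among 113 of 16397 genes, when only the 2 groups compared were fitted. Without a low-count filter, and with the choroid plexus covariate, it called Ctsh and Ctss. The Ctsh call was lost when any of Sham + CD replicates 1, 2 and 4 or either of TBI + CD replicates 2 and 3 was left out, and was joined by Ctss without TBI + VH replicate 2 or 4 or TBI + CD replicate 1, by Ctsz without Sham + VH replicate 3, and by both without Sham + VH replicate 1. With the 2 shallow libraries left out, Ctsh was not called (0.61 ± 0.13, FDR = 0.0745). In TBI + CD against Sham + VH edgeR called 0 of 10 and 0.113% of genes. Ctsh, Ctss and Ctsz and 1245 genes had an unadjusted p under 0.05 there, Ctss had 0.51 ± 0.10 (FDR = 0.0543), and DESeq2 called Ctss among 52 genes. edgeR called it too without a low-count filter, with the choroid plexus covariate, and when TBI + VH replicate 2 or 4 or TBI + CD replicate 1 was left out. With the 2 shallow libraries left out, Ctss had 0.50 ± 0.11 there (FDR = 0.221).

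The injured mice given candesartan had 76.3, 85.4, 91.0 and 96.8 CPM of Ctss at 29 dpi, overlapping the 84.8 to 122 CPM of TBI + VH. The log2 fold change of TBI + CD against TBI + VH was -0.25 ± 0.10 (95% interval -0.44 to -0.06) and was not called (FDR = 0.882). Ctsb in the same comparison was at -0.14 ± 0.05 (FDR = 0.882). Ctss and Ctsb were the 2 cathepsins of 10 with an unadjusted p under 0.05, next to 893 genes, while 0 of 10 cathepsins and 0% of genes were called by edgeR and 0 cathepsins by DESeq2. Sham + CD against Sham + VH and the interaction at 29 dpi also gave 0 of 10 and 0% of genes, each with 1 cathepsin at an unadjusted p under 0.05 (Ctsc at -0.39 ± 0.17 and Ctss at -0.30 ± 0.14) beside 810 and 890 genes, and DESeq2 called 0 cathepsins in both. Ctsd spanned 473.5 to 533 CPM in TBI + CD and 543 to 610 CPM in TBI + VH, without overlap, at a log2 fold change of -0.19 ± 0.10 (FDR = 0.882).

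**Figure D5:**
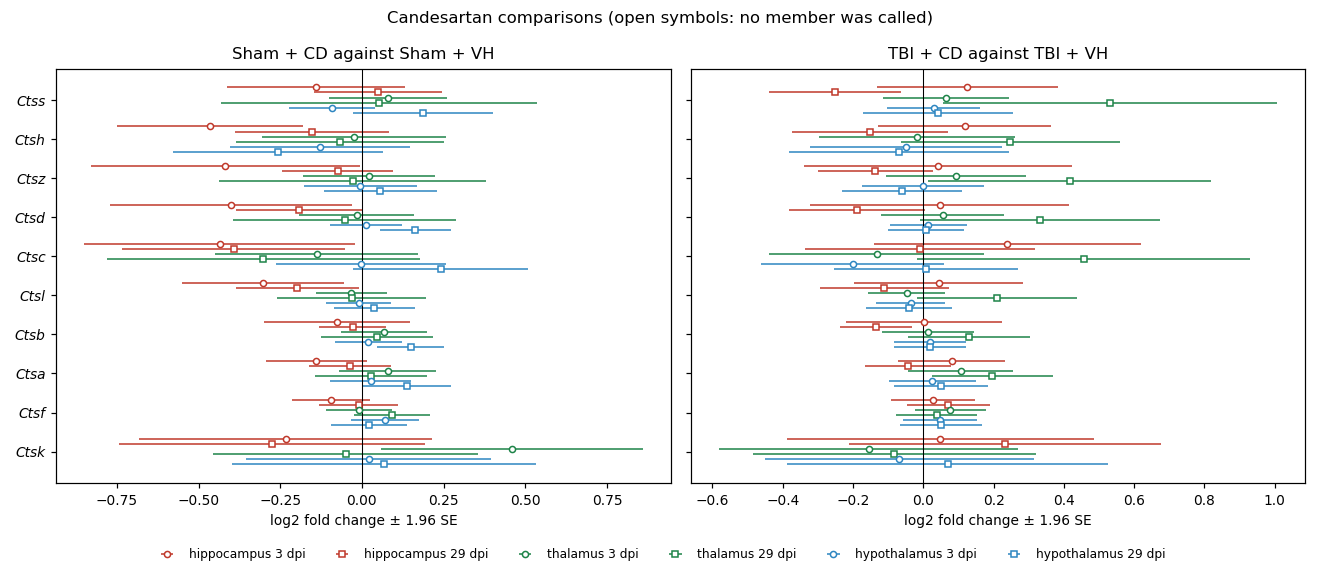
log2 fold change of each cathepsin for candesartan against vehicle in sham mice (left) and injured mice (right), with colours for regions, circles for 3 dpi, squares for 29 dpi and bars for the 95% interval. All symbols are open because edgeR called 0 of 10 cathepsins in each comparison, and the hippocampal circles on the left all lie below 0.

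The fall of the hippocampal response between the time points was tested as the difference of the injury effects. In the vehicle mice the response at 3 dpi was larger than at 29 dpi for 7 of 10 cathepsins, where 3.07% of genes were called in that direction. The differences of log2 fold changes were 1.27 ± 0.23 for Ctsd (FDR = 0.000904), 1.23 ± 0.23 for Ctsz (FDR = 0.00178), 1.10 ± 0.18 for Ctsh (FDR = 0.000357), 0.98 ± 0.18 for Ctss (FDR = 0.00107), 0.74 ± 0.16 for Ctsl, 0.69 ± 0.13 for Ctsb and 0.45 ± 0.10 for Ctsa. Ctsc had 0.86 ± 0.28 (FDR = 0.0984) and was called when 3 dpi TBI + VH replicate 2 or 29 dpi Sham + VH replicate 3 was left out. In the candesartan mice 8 of 10 were called, Ctsc included at 1.18 ± 0.28 (FDR = 0.00666), against 6.34% of genes. The route of drug or vehicle and the pump implantation differed between the time points, and these cannot be told apart from time in either treatment. In the thalamus of vehicle mice edgeR called 0 of 10 for the same difference and 0.00582% of genes, with 1 cathepsin (Ctsc) and 316 genes at an unadjusted p under 0.05, and DESeq2 called 0 cathepsins.

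In the thalamus at 29 dpi edgeR called 0 of 10 and 0% of genes in each of the 6 comparisons, and DESeq2 called 0 cathepsins. TBI + CD replicate 4 stood apart here. Ctss measured 59.9, 65.1, 87.2 and 178 CPM in that group, Ctsd 430, 463, 542 and 929 CPM, and Ctsz 30.8, 33.5, 45.7 and 79.2 CPM. The last library is the highest for each, and the first 2 lie close to the 51.0 to 63.2 CPM of Ctss in Sham + CD. The same library had 145.5 CPM of the microglial receptor Csf1r against 80.7 to 95.7 CPM in the other 3, and 746 CPM of the astrocyte gene Gfap against 133 to 275.5 CPM. Lyz2, a marker on the macrophage list, was at 41.9 CPM there against 7.80 to 12.1 CPM, and Cst7 at 30.1 CPM against 0.148 to 7.185 CPM. It also had 11.7 CPM of Neurod6, a gene of hippocampal and cortical neurons, against 0.922 to 1.48 CPM. Of the genes of thalamic neurons it had the most Prkcd, 922 CPM against 560 to 756 CPM, and the least Tcf7l2, 218 CPM against 236 to 340 CPM. With it, 5 of 10 cathepsins (Ctsd, Ctsh, Ctsl, Ctss and Ctsz) and 1549 of 16957 genes had an unadjusted p under 0.05 in TBI + CD against Sham + CD. In TBI + CD against Sham + VH the same 5 and Ctsb did, with 815 genes, and in TBI + CD against TBI + VH Ctsa and Ctss did, with 380 genes. Ctss had a log2 fold change of 0.82 in TBI + CD against Sham + CD (FDR = 0.422), and of 0.36 ± 0.11 without that library (FDR = 0.539). Against TBI + VH, Ctss had 0.53 with it and 0.07 ± 0.11 without it. In TBI + VH against Sham + VH 0 cathepsins and 419 genes had an unadjusted p under 0.05, and Ctss had 0.34 ± 0.24 (95% interval -0.14 to 0.82). That fit also held TBI + CD replicate 4, whose spread enters the error. Per kilobase, Ctss averaged 49.9 ± 3.60 CPM after injury with vehicle, against 39.3 ± 2.77 CPM for the matching sham mice (SD, n = 4 each). Of the 10 cathepsins, 2 had every injured vehicle library above every sham one, and 8 overlapped. The vehicle comparison is not given without TBI + CD replicate 4, so this result does not decide whether Ctss responded there.

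In the hypothalamus at 29 dpi 0 of 10 were called in each of the 6 comparisons, where edgeR called 0.00583% of genes higher in TBI + VH against Sham + VH and 0% in the others. At an unadjusted p under 0.05 there were 0 to 2 cathepsins, the 2 being Ctsb and Ctsd in Sham + CD against Sham + VH, where 2269 of 17165 genes were, and DESeq2 called 0 cathepsins. Ctss in the vehicle mice was at 57.0 ± 3.01 CPM in sham and 59.4 ± 2.67 CPM in injured libraries (SD, n = 4 each), a log2 fold change of 0.06 ± 0.11 (interval -0.16 to 0.27).

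The promoters of the 10 genes, 250 bases before to 50 after the start in RefSeq sequences of build GRCm38.p6, were searched on both strands for motifs of factors known to act on lysosomal and myeloid genes. Of the 10, 8 had an entry, and Ctsa had 2. A member is counted when any of its entries matches, whereas the shares of all promoters count entries. CACGTG, the E-box core bound by the TFEB family, was present in 4 of 8 members (Ctsa, Ctsd, Ctsf and Ctsl) and in 7.15% of all 32851 promoters. TCACGTGA, a longer form that contains it, was present in Ctsa and Ctsd and in 0.974% of all promoters. GAGGAAG, the core bound by the myeloid factor PU.1, was present in Ctsc, Ctsk and Ctss, 3 of 8, and in 13.6% of all. TGACTCA, the AP-1 site, was present in 0 of 8 and in 5.2% of all. Counted by entry, the members gave 4, 2, 3 and 0 of 9 for these motifs in turn. In the shorter window of 200 bases CACGTG was present in 3 members and 5.45% of promoters, and GAGGAAG in 3 and 9.97%. A match describes these letters and no binding was measured. The promoters of Ctsd (chr7:142387778-142388077, minus strand), Ctsa (chr2:164833523-164833822, plus strand, the entry with matches), Ctsf (chr19:4854915-4855214, plus strand), Ctss (chr3:95526536-95526835, plus strand) and Ctsz (chr2:174438990-174439289, minus strand) are shown 5′ to 3′, with the matches in capitals. They set the motifs of genes that rose after injury beside Ctsf, which holds CACGTG and was not called, and Ctsz, which rose 3.09-fold and holds none of the motifs searched.
Ctsd: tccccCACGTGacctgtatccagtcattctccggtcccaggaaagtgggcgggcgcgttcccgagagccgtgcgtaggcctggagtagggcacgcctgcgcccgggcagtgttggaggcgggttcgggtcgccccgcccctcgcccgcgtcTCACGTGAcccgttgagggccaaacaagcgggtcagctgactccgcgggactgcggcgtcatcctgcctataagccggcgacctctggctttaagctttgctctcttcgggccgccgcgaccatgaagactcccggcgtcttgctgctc
Ctsa: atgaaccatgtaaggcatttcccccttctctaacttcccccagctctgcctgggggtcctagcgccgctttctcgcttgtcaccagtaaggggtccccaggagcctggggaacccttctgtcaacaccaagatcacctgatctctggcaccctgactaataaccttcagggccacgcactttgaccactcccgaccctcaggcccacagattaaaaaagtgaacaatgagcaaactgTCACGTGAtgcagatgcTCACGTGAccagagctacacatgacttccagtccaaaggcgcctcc
Ctsf: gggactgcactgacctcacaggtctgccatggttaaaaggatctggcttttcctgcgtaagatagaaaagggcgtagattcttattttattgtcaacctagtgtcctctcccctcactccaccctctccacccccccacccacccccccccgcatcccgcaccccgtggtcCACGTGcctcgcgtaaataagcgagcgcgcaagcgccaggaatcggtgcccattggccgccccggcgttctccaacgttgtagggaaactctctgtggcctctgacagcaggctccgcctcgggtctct
Ctss: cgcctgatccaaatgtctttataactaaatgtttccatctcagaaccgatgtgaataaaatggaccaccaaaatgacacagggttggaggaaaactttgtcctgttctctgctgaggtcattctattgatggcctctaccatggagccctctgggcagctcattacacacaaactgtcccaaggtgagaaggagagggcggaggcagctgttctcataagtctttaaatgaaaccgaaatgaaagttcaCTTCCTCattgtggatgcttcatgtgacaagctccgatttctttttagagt
Ctsz: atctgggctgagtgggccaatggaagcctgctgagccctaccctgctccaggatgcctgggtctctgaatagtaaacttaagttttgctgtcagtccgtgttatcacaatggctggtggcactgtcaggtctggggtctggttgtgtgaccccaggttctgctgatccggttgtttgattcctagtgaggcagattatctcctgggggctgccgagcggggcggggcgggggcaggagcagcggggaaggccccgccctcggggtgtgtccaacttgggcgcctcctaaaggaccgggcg

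The TCACGTGA matches of Ctsa lie at positions -13 to -6 and 4 to 11 counted from the start base as 0, and that of Ctsd at -99 to -92. The GAGGAAG match of Ctss lies across the start, at -1 to 5, on the reverse strand. Ctss and Ctsk are neighbours on chromosome 3, with a gap of 17423 bases between the end of Ctsk at 95509362 and the start of Ctss at 95526786 on the same strand in GENCODE vM21. Both hold GAGGAAG, and in the injured hippocampus at 3 dpi Ctss had 3.26 times and Ctsk 1.003 times its sham level. The other members lie on chromosomes 2 (Ctsa and Ctsz), 7 (Ctsc and Ctsd), 9 (Ctsh), 13 (Ctsl), 14 (Ctsb) and 19 (Ctsf).

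The genes whose level ran most like a cathepsin over the 24 group means were named among 15049 genes as a description by Pearson r, and the points share regions, injury and controls. For Ctss they were C1qa, Ptpn6 and Samsn1, with r from 0.96 to 0.97. For Ctsd they were Spi1, which encodes PU.1, Ifi30 and Hexa (r of 0.97 to 0.98), and for Ctsh Cd9, Spi1 and Ncf1 (0.97 to 0.98). Ctsz ran with Lpcat2, Fcgr2b and Psmb8 (r of 0.97), Ctsa with Lyn, Rab5c and Cx3cr1 (0.97 to 0.98) and Ctsb with Tubb6, Gpsm3 and Gpr17 (0.96 to 0.97). Ctsl ran with Lgmn, Chil1 and Rhoc (0.96 to 0.97), and Ctsc with Ugp2, Clu and Cyth4 (0.97 to 0.98). Ctsf ran with Fam109a, Nudt22 and Slc35e4 (0.97 to 0.98), and Ctsk ran with Slc12a2, Nr2c1 and AK134715 (0.80). Without the 2 injured hippocampal groups at 3 dpi the r of Ctsb was 0.79 with Tubb6, 0.70 with Gpsm3 and 0.68 with Gpr17. That of Ctsd was 0.85 with Spi1, 0.77 with Ifi30 and 0.82 with Hexa, while Ctsf with Fam109a kept 0.98. Among the members themselves r was highest between Ctsd and Ctsz, at 0.97, and lowest between Ctsc and Ctsk, at -0.27.

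Other lysosomal genes were counted on 7 lists. In TBI + VH against Sham + VH in the hippocampus at 3 dpi, 25 of 76 tested were called higher and 1 lower, where 8.99% of all genes tested were called higher and 1.72% lower. The median log2 fold change of the 76 was 0.16, against -0.0129 over all genes. Of the cystatins, which inhibit cysteine cathepsins, 3 of 4 were called higher. Cst7 rose by 4.6 ± 0.40 on the log2 scale, from 0.116 to 2.85 CPM, Cst3 from 1002 to 1378 CPM, and Cstb from 12.8 to 16.2 CPM. Of the genes of maturation and sorting, 3 of 9 were called higher, namely Grn at 1.57 ± 0.155, whose product progranulin is processed in the lysosome, Lgmn at 1.24 ± 0.14, a protease that matures cathepsins, and Nagpa at 0.56 ± 0.08. The most abundant of that list, Psap at -0.06 ± 0.05 and Sort1 at -0.13 ± 0.07, were not called. Of the lysosomal membrane genes 6 of 13 were called higher, led by Cd68 at 2.31 ± 0.27, Laptm5 at 1.57 ± 0.13 and Cd63 at 0.92 ± 0.16. Lamp1 rose from 337 to 453 CPM, and Laptm4a was not called at 0.08 ± 0.05.

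Hydrolases gave 10 of 31 called higher, among them Gusb at 1.55 ± 0.19 and Dnase2a at 1.25 ± 0.21, while the most abundant, Gaa at -0.16 ± 0.09 and Ids at -0.16 ± 0.08, were not called. The V-ATPase, the proton pump that acidifies the lysosome, had 0 of 14 called by edgeR, with log2 fold changes from -0.15 to 0.24 and 5 at an unadjusted p under 0.05. Of its 2 most abundant, Atp6v1b2 was at -0.13 ± 0.04 (FDR = 0.0497), below the fold threshold, and Atp6v0a1 at -0.15 ± 0.06 (FDR = 0.124). Of the regulators, Tfeb was 0.64 ± 0.13 higher (FDR = 0.00299), Mitf 0.58 ± 0.15 lower (FDR = 0.0118) and Tfe3 below the fold threshold at 0.18 ± 0.04 (FDR = 0.0106). Both other cathepsins tested were called higher, Ctse at 2.15 ± 0.35 and Ctso at 0.37 ± 0.09. In the thalamus at 3 dpi 3 of 74 were called higher, where 0.298% of all genes were, among them Cd68 at 1.03 ± 0.15 and Laptm5 at 0.75 ± 0.11. In the hippocampus at 29 dpi 5 of 77 were, against 0.523% of all genes, among them Atp6v0d2 at 4.87 ± 0.55 from 0.0140 to 0.856 CPM, Cst7 at 3.80 ± 0.40, Cd68 at 1.01 ± 0.12 and Laptm5 at 0.48 ± 0.08.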

How the data were processed

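Bulk mRNA libraries were prepared with a stranded kit, sequenced as paired 75-base reads and aligned by the authors to mm10 with MapSplice. The deposited count tables hold whole-number counts per gene, which the authors made with HTSeq 0.9.1 and analysed with DESeq2 1.16.1. The annotation, the strand setting and the treatment of reads with several matches are not given in the sources used here. The RNA of highest quality was chosen for 4 libraries per group.

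From these counts, 47 comparisons were fitted in edgeR 4.0.16 (R 4.3.3) with its default low-count filter, TMM factors and the quasi-likelihood test, with Benjamini-Hochberg adjustment over all genes tested. Fits within a region and time point used its 16 libraries. An SE is the absolute log2 fold change divided by the square root of F, and 95% intervals are normal. The fits used their own TMM factors, and printed CPM used factors over all 96 libraries. The 3 dpi libraries held a median of 24106273 counts and the 29 dpi libraries 26818562.5. DESeq2 1.42.0 was an alternative. Other alternatives were RLE factors, no low-count filter, the FDR alone, the compared groups alone, a replicate block, a choroid plexus score, leaving out each library, and, chosen after the data were seen, leaving out the 2 hippocampal 29 dpi libraries with the fewest counts (6663629 and 8159341). The fits were tested on simulated data. The 144 pairs of libraries of one group differed beyond counting noise.

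The members, marker lists and pathway lists were chosen with earlier results of these data known. Of each list the 3 called genes with the largest change and the 2 most abundant are named, and of each member the 3 genes with the most similar group means (at least 1 CPM on average and 0.1 CPM in every group mean). A single gene that this rule would name is not reported here. Promoters came from RefSeq, and gene positions and transcript lengths from GENCODE vM21. Figures were drawn with matplotlib 3.10.9.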

Additional observations from a re-analysis of the deposited data

Results flagged for a closer look

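Of 240 groups of 4 libraries, 9 held a library whose gap to the nearest other was large against the range of its group, where chance gives about 12. In the thalamus at 29 dpi, Ctsa was 101.2 CPM in Sham + CD replicate 2 (others 107.8 to 108.6), Ctsb 586.6 CPM in Sham + VH replicate 4 (540.4 to 547.7) and Ctsz 34.49 CPM in Sham + CD replicate 3 (31.0 to 31.56). In the thalamus at 3 dpi, Ctsb was 556.2 CPM in TBI + VH replicate 3 (630.0 to 634.0), Ctsc 7.868 CPM in TBI + CD replicate 4 (9.893 to 10.1) and Ctsf 96.88 CPM in Sham + CD replicate 4 (93.79 to 93.87). Ctsb was 690.5 CPM in hypothalamus 29 dpi TBI + CD replicate 4 (602.1 to 614.9). Ctsk was 2.382 CPM in hippocampus 3 dpi TBI + CD replicate 1 (1.516 to 1.62) and 1.949 CPM in hippocampus 29 dpi Sham + CD replicate 2 (1.468 to 1.531).

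The injury response itself differed by test between regions and between time points. In the vehicle mice at 3 dpi it was larger in the hippocampus for 7 of 10 cathepsins against the thalamus (3.51% of all genes) and for 7 of 10 against the hypothalamus (4.92%). Between 3 and 29 dpi in the hippocampus it was larger at the earlier time for 7 of 10 cathepsins in vehicle mice (3.07% of all genes) and for 8 of 10 in candesartan mice (6.34%).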

How the results depend on the processing

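Of 47 counts of cathepsins called, 37 stayed within 1.5 times under every alternative run and 10 did not. The 37 include every count that was 0 in all runs, such as those of the 6 hypothalamic comparisons at each time point. The 8 calls in each of the 3 hippocampal injury comparisons at 3 dpi ranged from 8 to 8 when libraries were left out, and the candesartan difference between times likewise from 8 to 8. Of 9890 member values recomputed, 391 uncalled ones changed sign and 0 called ones did. The cause of the following changes was not tested. With DESeq2, hippocampal Sham + CD against Sham + VH at 3 dpi went from 0 to 1, and at 29 dpi TBI + CD against Sham + VH from 0 to 1 and TBI + CD against Sham + CD from 1 to 3. With only the groups compared, these counts were 3 for the first and 4 for the last, the thalamic 3 dpi counts of TBI + VH and TBI + CD against Sham + VH were 0 and 1, and the hippocampal 29 dpi count of TBI + VH was 1. Without a low-count filter, and with the choroid plexus covariate, TBI + CD in the 29 dpi hippocampus gave 1 against Sham + VH and 2 against Sham + CD. With the FDR alone the 29 dpi counts were 4 for hippocampus against hypothalamus and 3 for thalamus against hypothalamus, and RLE factors gave 2 for the latter. Without the 2 shallow hippocampal libraries, which also leaves fewer samples, the hippocampal 29 dpi counts were 1 for TBI + VH and 0 for TBI + CD against Sham + CD, and thalamus against hypothalamus gave 2.

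Leaving out 1 library gave 0 to 1 for hippocampal Sham + CD at 3 dpi (Ctsh without TBI + VH replicate 2). It gave 0 to 2, 1 to 2 and 0 to 2 for the thalamic 3 dpi comparisons of TBI + VH, of TBI + CD against Sham + VH and of TBI + CD against Sham + CD. The same comparisons in the 29 dpi hippocampus gave 1 to 3, 0 to 1 and 0 to 3. The region counts gave 3 to 4, 1 to 3 and 1 to 1 at 3 dpi and 2 to 3, 2 to 3 and 0 to 2 at 29 dpi, and the vehicle injury differences 7 to 8.

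The replicate numbers were not taken to pair the libraries, since in no region and time point did every pair of the same number correlate above 0.1. From 7 (hippocampus, 3 dpi) to 18 (thalamus, 3 dpi) of 24 pairs did, with a median r of 0.0233 to 0.193 for the same number and -0.0799 to 0.00912 for other numbers. Across regions 15 of 48 pairs did at 3 dpi and 28 of 48 at 29 dpi. With a replicate block, TBI + CD in the 29 dpi hippocampus gave 1 against Sham + VH and 2 against Sham + CD, and TBI + VH against Sham + VH there went from 3 to 2, since Ctsz was not called (0.43 ± 0.09, FDR = 0.0506). No other count changed. Depth limits Ctsk most, with as few as 8 counts in a library.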
